A study of Mus musculus with 6 samples.

Results

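Chromatin occupancy of estrogen receptor alpha (ERα) was described around 34 marker genes of the cells of the brain that are not neurons, out of 21887 protein-coding genes on the assembled mouse chromosomes. The genes were taken from a list of textbook markers and comprised 11 astrocyte, 10 oligodendrocyte, 7 microglial and 3 endothelial markers, with 3 more for ependyma and choroid plexus. A peak was given to a gene when it overlapped the gene's RefSeq span, or when it lay within 50 kb of the span and no other protein-coding gene was nearer. No peak value entered the choice of genes, although earlier results of these libraries were known when the list was made.

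ERα is a nuclear receptor that binds estradiol and then acts on DNA, directly at estrogen response elements or through other bound factors. In the brain it is known mainly from neurons of the hypothalamus, the preoptic area and the amygdala, and it has also been described in astrocytes and endothelium. Astrocytes take up glutamate and convert it to glutamine, oligodendrocytes make myelin, microglia are the resident macrophages, endothelial cells line the vessels, and ependymal and choroid plexus cells border the ventricles. The tissue was processed whole, so each library mixes nuclei of all these types, and a peak beside a marker gene does not say in which cell type it arose.

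The libraries were CUT&RUN, in which an antibody directs a nuclease to a bound protein in isolated nuclei and the released fragments are sequenced. The estradiol group (3 libraries) came from adult C57/BL6 male mice given 5 µg estradiol benzoate subcutaneously, and the vehicle group (3 libraries) from males given corn oil. All males had been gonadectomized at 10 to 12 weeks of age and were used 3 weeks later, with nuclei isolated 4 hours after the injection. The tissue is labelled limbic system, and the labels do not say whether animals were pooled or whether replicates are separate animals, so the spread between libraries may be technical. For replicate 3 of both groups the treatment is given by the title alone and the peak names have another style. It is treated below as a batch of its own with 1 library per group.

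The estradiol lists held 11082, 14123 and 17558 peaks and the vehicle lists 5421, 13717 and 20541. Vehicle replicate 1 was thus the shortest list and vehicle replicate 3 the longest. The median peak of each library stood on an estimated 6 fragments at its summit and the smallest on 4, so that a gene without a peak is a gene at which none was detectable at this depth.

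The sequences shown first are the RefSeq promoter windows (assembly GRCm38.p6, the same coordinate system as mm10) of the 3 markers whose window was overlapped by a region held by at least 3 libraries. All 3 are astrocyte markers, taken from the 22 of the 34 markers present in the promoter table. They are Aldh1l1, a folate-metabolizing enzyme widely used to mark astrocytes, Glul, which encodes glutamine synthetase, and Apoe, the main lipid carrier secreted by astrocytes. Each window runs 5′ to 3′ along the gene's strand from 250 bases before the transcription start to 50 after it, and capitals mark the bases inside the merged peak region.

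Aldh1l1 (chr6:90550543-90550842, plus strand): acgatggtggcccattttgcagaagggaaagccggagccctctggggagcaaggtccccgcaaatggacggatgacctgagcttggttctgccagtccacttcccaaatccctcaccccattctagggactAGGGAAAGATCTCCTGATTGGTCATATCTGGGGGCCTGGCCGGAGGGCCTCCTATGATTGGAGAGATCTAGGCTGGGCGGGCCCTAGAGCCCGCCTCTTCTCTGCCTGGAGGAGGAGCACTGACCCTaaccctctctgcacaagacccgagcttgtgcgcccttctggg
Glul (chr1:153899679-153899978, plus strand): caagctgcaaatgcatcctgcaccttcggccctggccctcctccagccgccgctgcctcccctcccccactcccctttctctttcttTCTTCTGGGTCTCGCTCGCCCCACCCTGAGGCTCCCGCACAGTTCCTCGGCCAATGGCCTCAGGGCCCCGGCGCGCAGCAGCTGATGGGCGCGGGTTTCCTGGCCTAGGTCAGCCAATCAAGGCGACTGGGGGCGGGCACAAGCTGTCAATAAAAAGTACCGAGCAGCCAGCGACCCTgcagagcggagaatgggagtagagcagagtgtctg
Apoe (chr7:19699139-19699438, minus strand): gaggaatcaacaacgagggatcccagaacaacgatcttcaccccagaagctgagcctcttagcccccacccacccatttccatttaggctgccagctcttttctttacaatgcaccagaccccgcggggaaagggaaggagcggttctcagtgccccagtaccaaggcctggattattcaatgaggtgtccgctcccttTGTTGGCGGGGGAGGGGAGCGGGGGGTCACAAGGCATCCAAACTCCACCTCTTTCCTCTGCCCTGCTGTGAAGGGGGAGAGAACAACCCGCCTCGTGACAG

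Next, 5 motifs were searched on both strands of these windows. The full estrogen response element (GGTCA, any 3 bases, then TGACC) was in none of the 28 windows of the 22 markers present in the promoter table, and in 0.0517% of all 21263 windows of protein-coding genes. Its hexamer AGGTCA, which can be part of the full element, was in 7 of the 28 windows and in 14.7% of all windows. In Glul the hexamer began at base 194 of the window, inside the region, and in Aldh1l1 its complement TGACCT began at base 73, outside it. The Glul and Aldh1l1 windows each held 1 GC box (GGGCGG, in 46.2% of all windows) and 2 CCAAT boxes (CCAAT, in 38.2%). The AP-1 motif (TGANTCA, in 6.99% of all windows) was in neither, and the Apoe window held none of the motifs. The windows of Glul, Apoe and Aldh1l1 had 17, 10 and 9 CpG dinucleotides, against a median of 22 over the 7088 windows of all genes with a peak in at least 1 library and of 6 over the 14175 windows without one.

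Among the markers present in the promoter table, windows were seldom occupied in several libraries. Of the 22 markers with a window, 7 (31.8%) had it overlapped by a peak in at least 1 library, where 36.5% of all genes did. For at least 3 libraries the count was 3 (13.6%), against 26% of all genes. None had it overlapped in all 6 libraries, against 10.7% of all genes. The other 4 of the 7 windows, those of S100b, Olig2, Mobp and Cldn11, were overlapped in 1 vehicle library each. Markers absent from the promoter table do not enter these shares. Clu and Foxj1 are among them, and each had a region across an end of the gene held by 4 libraries.

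Across whole gene neighbourhoods, 27 of the 34 markers (79.4%) had a peak in at least 1 library, against 60.9% of all genes. In estradiol replicates 1, 2 and 3 there were 14, 19 and 18 markers with a peak (41.2%, 55.9% and 52.9% of the list), where 33.7%, 39.8% and 43.7% of all genes had one. In vehicle replicates 1, 2 and 3 there were 8, 16 and 22 (23.5%, 47.1% and 64.7%), where 19.6%, 39.4% and 49.8% of all genes had one. In each of the 6 libraries the markers' share was above that of all genes, and the number followed the length of the list within each batch.

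The groups overlapped in this count. The estradiol libraries averaged 17 ± 2.65 markers with a peak and the vehicle libraries 15.3 ± 7.02 (SD, n = 3 each), a difference of 1.67. Within replicates 1 and 2 the difference was 4.5 markers, and in replicate 3, with 1 library per group, it was -4. Without vehicle replicate 1 it was -2, so the sign rests on the shortest list. With every list shortened to its 5421 highest peaks, the estradiol libraries had 5, 7 and 6 markers with a peak and the vehicle libraries 8, 5 and 7.

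**Figure D1:**
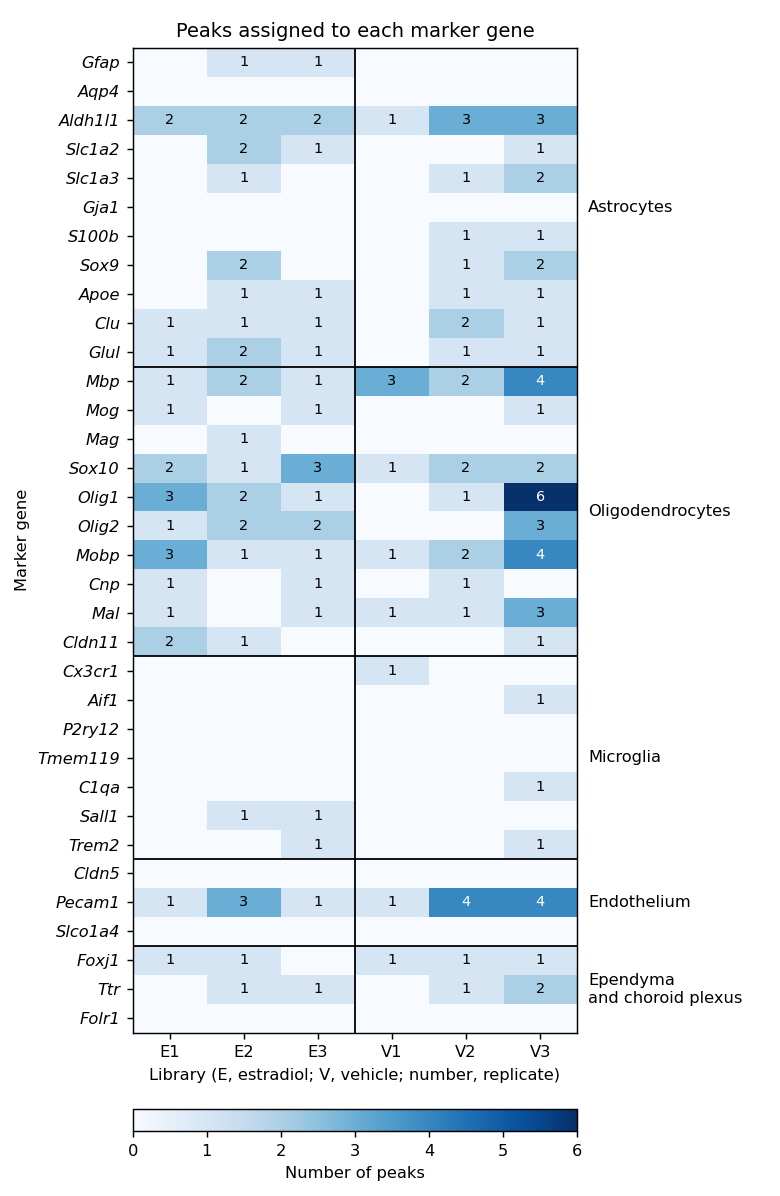
Number of peaks assigned to each of the 34 marker genes (rows, by cell type) in the 3 estradiol and 3 vehicle libraries (columns); the colour and the printed digit give the number of peaks, and blank cells are 0. All 10 oligodendrocyte markers have a peak in at least 1 library and 3 of them in all 6, microglial markers hold at most 1 peak in any library, and 7 genes have none.

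Counted by the number of libraries, 23 markers (67.6%) had a peak in at least 1 estradiol library, where 52.8% of all genes did, and 24 (70.6%) in at least 1 vehicle library, where 54.8% did. Peaks in at least 3 libraries of either kind were found at 19 markers (55.9%, against 41.7%). More estradiol than vehicle libraries held a peak at 11 markers (32.4%, against 20.9%), more vehicle than estradiol libraries at 8 (23.5%, against 14%), and as many of each at 8 (23.5%, against 26%). No library held one at 7 markers (20.6%, against 39.1%).

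Fewer markers had a peak in every library of a group. In all 3 estradiol libraries 9 markers (26.5%) had one, where 25.6% of all genes did. All 3 vehicle libraries had a peak at 7 markers (20.6%, against 16.8% of all genes), and all 6 libraries at 5 (14.7%, against 14.3%). These shares are near those of all genes. The 5 were Aldh1l1 of astrocytes, Mbp, Sox10 and Mobp of oligodendrocytes, and Pecam1 of endothelium.

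No marker had peaks in the complete estradiol group and none under vehicle, a pattern that 0.334% of all genes showed. None had the reverse pattern either, which 0.142% of all genes showed. With at least 2 estradiol and no vehicle libraries there were 2 markers, Gfap and Sall1 (1.66% of all genes). With at least 2 vehicle and no estradiol libraries there was 1, S100b (1.77% of all genes). At each of these 3 genes the peaks of the 2 libraries lay in different regions, so no single site recurred. Without vehicle replicate 3 there were 6 of the first kind and 0 of the second, and without estradiol replicate 2 there were 0 and 3.

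The number of peaks per library at a single gene was compared between the groups by a two-sided exact permutation test over the 6 libraries. With 3 libraries against 3 the smallest p is 0.1, so no gene could pass. Over the 13333 genes with a peak, 0 had an unadjusted p under 0.05 and the Benjamini-Hochberg adjusted p was 1 throughout. The groups did not overlap at 0 of the 27 markers with a peak, whereas they did not overlap with estradiol higher at 0.945% of these genes and with estradiol lower at 0.315%. The lowest p among the markers was that of Mbp, which encodes myelin basic protein, a main structural protein of compact myelin. It had 1, 2 and 1 peaks in the estradiol libraries and 3, 2 and 4 in the vehicle libraries (exact permutation p = 0.2, adjusted p = 1), and the groups met at 2.

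Peaks of the 6 lists that overlapped or touched were merged into regions. The markers had 82 regions, none of them shared with another gene. A single library held 57 of them (69.5%), against 55.4% of the 32012 regions assigned to any gene. Both groups held 24 (29.3%, against 38.4%) and all 6 libraries held 2 (2.44%, against 8.64%). Vehicle replicate 3, the longest list, held 22 of the 57 single-library regions, and vehicle replicate 1 held 3. Regions found once had a median of 5 fragments at their highest summit (range 4 to 12), and the 17 regions held by at least 3 libraries had 8 (range 5 to 30).

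None of the 82 regions was found in all 3 estradiol libraries and no vehicle library (0.644% of all assigned regions), or in all 3 vehicle libraries and no estradiol library (0.128%). With at least 2 libraries of a group and none of the other, there was 1 region on the estradiol side (1.22%, against 3.43% of all assigned regions) and 0 on the vehicle side (against 2.76%). Counted by gene, 1 marker had such a region on the estradiol side, where 4.66% of all genes did, and 0 on the vehicle side, where 3.9% did. For regions in all 3 libraries of a group and none of the other, the count was 0 markers on the estradiol side (0.987% of all genes) and 0 on the vehicle side (0.192%). At least 1 region in all 6 libraries was found at 2 markers, against 13.3% of all genes. The estradiol region lay 3.755 kb outside Cldn11, which encodes a tight junction protein of the myelin sheath (chr3:31146108-31146165). It had 5 summit fragments in estradiol replicate 1 and 5 in estradiol replicate 2, and no peak in estradiol replicate 3 or in any vehicle library. Both values are close to the smallest summit that was called, and without vehicle replicate 3 there were 3 such regions on the estradiol side.

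Of the 3 lists with at least 7 genes, that of oligodendrocytes held the most peaks per length in each library. All 10 had a peak in at least 1 library, where 60.9% of all genes did. In all 3 estradiol libraries 5 had one (50%, against 25.6% of all genes), in all 3 vehicle libraries 4 (40%, against 16.8%) and in all 6 libraries 3 (30%, against 14.3%). Scaled to the sequence that would be assigned to them, the 10 genes had 2.47, 1.65 and 1.81 peaks per 100 kb in estradiol replicates 1, 2 and 3, where all genes had 0.583, 0.748 and 0.900. In vehicle replicates 1, 2 and 3 they had 0.989, 1.48 and 3.96, where all genes had 0.288, 0.723 and 1.09. The density was above that of all genes in each of the 6 libraries, and the range of the estradiol libraries lay within that of the vehicle libraries. These values hold for the 10 listed genes. Of 11 further genes of the lineage, described below, 63.6% had a peak in at least 1 library and 18.2% in all 3 estradiol libraries. The density at those further genes was not calculated.

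The regions at oligodendrocyte genes that recurred lay away from the ends of the genes. Of 8 regions held by at least 3 libraries, 0 lay within 1 kb of a gene end, 2 were inside a gene farther from its ends and 6 were outside. Over all genes, 54.7% of the 9729 regions held by at least 3 libraries lay within 1 kb of an end of the gene. For all 34 markers the share was 4 of 17 (23.5%).

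Both regions held by all 6 libraries belonged to this cell type. The higher one lay 9.86 kb beyond the higher-coordinate end of Mobp, which encodes a small basic protein of compact myelin (chr9:120191349-120191662). It had 15, 9 and 24 summit fragments in estradiol replicates 1, 2 and 3 and 11, 9 and 30 in vehicle replicates 1, 2 and 3. Its fold enrichment, the authors' own value for each peak, was 10.7, 7.05 and 13.1 in the estradiol libraries and 8.54, 7.08 and 16.3 in the vehicle libraries. The groups overlapped, replicate 3 was highest in both, and in each library its −log10 q-value was above that of 67.1% to 97.0% of the peaks.

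The other region lay 28.8 kb from the higher-coordinate end of Sox10, which encodes a transcription factor required for oligodendrocyte differentiation (chr15:79193267-79193503). It had 5, 7 and 11 summit fragments in the estradiol libraries and 7, 11 and 11 in the vehicle libraries. The groups overlapped here too. Another region, 3.58 kb from the lower-coordinate end of Olig1 (chr16:91266034-91266193), was missing from vehicle replicate 1 alone. Olig1 encodes a basic helix-loop-helix factor of the oligodendrocyte lineage, and its region had 8, 8 and 17 summit fragments in the estradiol libraries and 8 and 17 in vehicle replicates 2 and 3.

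Olig2, the neighbouring gene of the same family that specifies the lineage, had a peak in all 3 estradiol libraries and in vehicle replicate 3. Its recurrent region lay 33.3 kb from the gene (chr16:91192065-91192212), with 7, 5 and 5 summit fragments in the estradiol libraries and 8 in vehicle replicate 3. It was thus absent from the lists of 2 vehicle libraries, but the highest value was that of a vehicle library. Olig1 and Olig2 had 7 and 5 regions in all, of which 4 and 4 were found in 1 library each. Olig1 had 3, 2 and 1 peaks in the estradiol libraries and 0, 1 and 6 in the vehicle libraries, so that vehicle replicate 3 alone held 6 of them.

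Genes of the myelin sheath differed among themselves. Mbp had 9 regions, the most of any marker, but 7 of them were found in 1 library each and the highest of its peaks had 7 fragments. Its most shared region, inside the gene, had 6 fragments in estradiol replicate 2 and 6 and 7 in vehicle replicates 2 and 3. Mal, which encodes a lipid raft protein of myelin, had a region 10.9 kb from the gene with 5 fragments in estradiol replicate 1 and 6, 4 and 7 in vehicle replicates 1, 2 and 3 (chr2:127622211-127622332). Mog, which encodes a protein of the outer myelin surface, and Cnp, a myelin-associated enzyme, had 1 region each, held by 2 estradiol libraries and 1 vehicle library. Mag, a myelin adhesion molecule, had 1 peak of 4 fragments, in estradiol replicate 2. None of these summits exceeded 7 fragments, where the median peak of each library had 6.

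**Figure D2:**
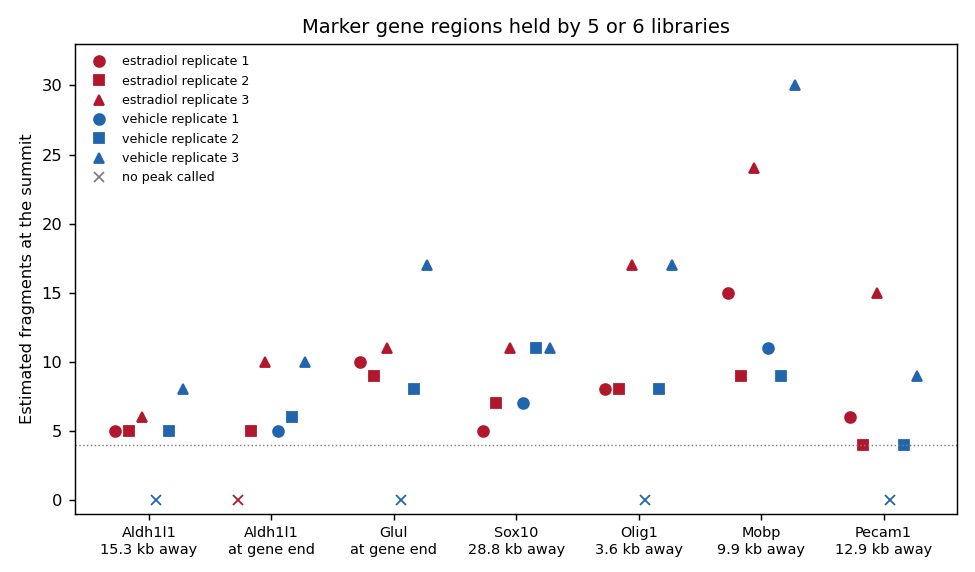
Estimated fragments at the summit (y axis) of the 7 marker gene regions held by 5 or 6 libraries, with each estradiol (red) and vehicle (blue) library as a point, a cross where no peak was called and a dotted line at 4, the smallest summit called. The groups overlap at every region, the Mobp region is the highest (30 in vehicle replicate 3), and 4 of the 5 missing peaks are in vehicle replicate 1.

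Astrocyte markers had fewer peaks per length than oligodendrocyte markers in each library, and some of their recurrent regions sat at an end of the gene. Of 11 genes, 8 (72.7%) had a peak in at least 1 estradiol library, against 52.8% of all genes. In all 3 estradiol libraries 3 had one (27.3%, near the 25.6% of all genes), and in all 3 vehicle libraries 1 (9.09%, against 16.8%). Their density was 0.475, 1.43 and 0.831 peaks per 100 kb in the estradiol libraries and 0.119, 1.19 and 1.43 in the vehicle libraries. It was below that of all genes in estradiol replicates 1 and 3 and vehicle replicate 1, and above it in the other 3. Of 6 regions held by at least 3 libraries, 3 lay within 1 kb of a gene end, where none of the oligodendrocyte regions did. The Apoe region was not among these 3, since its window belongs to a transcript start inside the gene's span.

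At Glul, the region in the promoter window printed above (chr1:153899766-153899943) had 10, 9 and 11 summit fragments in the estradiol libraries. It had 8 and 17 in vehicle replicates 2 and 3 and no peak in vehicle replicate 1. At the start of Aldh1l1 (chr6:90550674-90550800) estradiol replicates 2 and 3 had 5 and 10 fragments, estradiol replicate 1 had no peak, and vehicle replicates 1, 2 and 3 had 5, 6 and 10. Aldh1l1 also had a region 15.3 kb away (chr6:90535173-90535438), with 5, 5 and 6 fragments in the estradiol libraries and 5 and 8 in vehicle replicates 2 and 3. Neither gene separated the groups.

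The Apoe region (chr7:19699068-19699239) had 8 and 6 fragments in estradiol replicates 2 and 3 and 6 and 8 in vehicle replicates 2 and 3. Clu, which encodes the secreted chaperone clusterin, had a region across its lower-coordinate end (chr14:65968431-65968614) with 8 and 8 fragments in estradiol replicates 2 and 3 and 10 and 13 in vehicle replicates 2 and 3. A further Clu peak of 6 fragments in estradiol replicate 1 lay beside it without touching, and merging peaks within 500 bp joined the pair into a region held by 3 estradiol and 2 vehicle libraries. Replicate 1 of the vehicle group had no peak at Apoe, Clu or Glul.

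The glutamate transporter genes had scattered peaks. Slc1a2, the main transporter of forebrain astrocytes, had 0, 2 and 1 peaks in the estradiol libraries and 0, 0 and 1 in the vehicle libraries, in 4 regions held by 1 library each. Slc1a3, its relative of cerebellar and radial glia, had 0, 1 and 0 in the estradiol libraries and 0, 1 and 2 in the vehicle libraries. One Slc1a3 region, 44.1 kb away (chr15:8589901-8589979), had 4 fragments in estradiol replicate 2 and 13 in vehicle replicate 3. Sox9, a transcription factor of astrocyte specification, had 0, 2 and 0 peaks in the estradiol libraries and 0, 1 and 2 in the vehicle libraries. One Sox9 region, 23.5 kb away (chr11:112811257-112811344), had 4 fragments in estradiol replicate 2 and 5 and 6 in vehicle replicates 2 and 3. S100b, a calcium-binding protein, had 0, 0 and 0 peaks in the estradiol libraries and 0, 1 and 1 in the vehicle libraries. At Gfap, the intermediate filament of astrocytes, estradiol replicates 2 and 3 had 1 peak each, of 6 and 5 fragments, in separate regions (chr11:102888272-102888356 inside the gene and chr11:102898551-102898629 beyond it). Aqp4, the water channel of astrocyte end-feet, and Gja1, a gap junction protein, had no peak in any library.

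Of the 7 microglial markers, 5 (71.4%) had a peak in at least 1 library, where 60.9% of all genes did, but each held few peaks. In at least 1 estradiol library 2 had one (28.6%, against 52.8%), and in at least 1 vehicle library 4 (57.1%, against 54.8%). The 7 genes had 0, 1 and 2 peaks in estradiol replicates 1, 2 and 3 and 1, 0 and 3 in vehicle replicates 1, 2 and 3. Their 6 regions included none held by at least 3 libraries, where 9729 of the 32012 regions of all genes were. Per 100 kb this was 0.354 ± 0.354 peaks in estradiol libraries and 0.472 ± 0.541 in vehicle libraries (SD, n = 3 each), where all genes had 0.744 ± 0.158 and 0.702 ± 0.403. In vehicle replicate 1 their density was above that of all genes and in the other 5 libraries below it. Their neighbourhoods were also small, with a median of 23.1 kb against 45.8 kb for all genes.

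Sall1, a transcription factor of microglial identity, had 1 peak each in estradiol replicates 2 and 3, of 4 fragments in separate places, and no vehicle peak. Trem2, a lipid-sensing receptor, had a region 9.29 kb away with a peak in estradiol replicate 3 and in vehicle replicate 3. C1qa, a chain of complement C1q, Aif1, a calcium-binding protein, and Cx3cr1, the fractalkine receptor, had 1 peak each, in vehicle replicate 3, 3 and 1. P2ry12, a purinergic receptor, and Tmem119, a membrane protein of homeostatic microglia, had none. None of the microglial peaks recurred within a group.

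Among the 3 endothelial markers, peaks were found at 1 gene alone. This was Pecam1, which encodes an adhesion molecule of endothelial junctions and had 1, 3 and 1 peaks in the estradiol libraries and 1, 4 and 4 in the vehicle libraries (exact permutation p = 0.4, adjusted p = 1). Its region 12.9 kb from the gene (chr11:106728225-106728299) had 6, 4 and 15 fragments in the estradiol libraries and 4 and 9 in vehicle replicates 2 and 3. Another, 5.69 kb away on the other side (chr11:106648439-106648523), had 5 fragments in estradiol replicate 2 and 4, 5 and 6 in the vehicle libraries. Cldn5, the main tight junction protein of the blood-brain barrier, and Slco1a4, an organic anion transporter, had no peak.

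Foxj1, the master regulator of motile cilia, had a region at its higher-coordinate end (chr11:116335387-116335503). It had 5 and 7 fragments in estradiol replicates 1 and 2 and 5 and 9 in vehicle replicates 1 and 3, and each group lacked it once. Ttr, the thyroid hormone carrier made by choroid plexus, had 5 regions, each found in 1 library. Merging peaks within 500 bp joined 3 of them, inside the gene, into a region held by 2 estradiol libraries and 1 vehicle library. Folr1, the folate receptor of choroid plexus, had none. With 3 genes in each of these lists, their shares say little about the cell type.

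**Figure D3:**
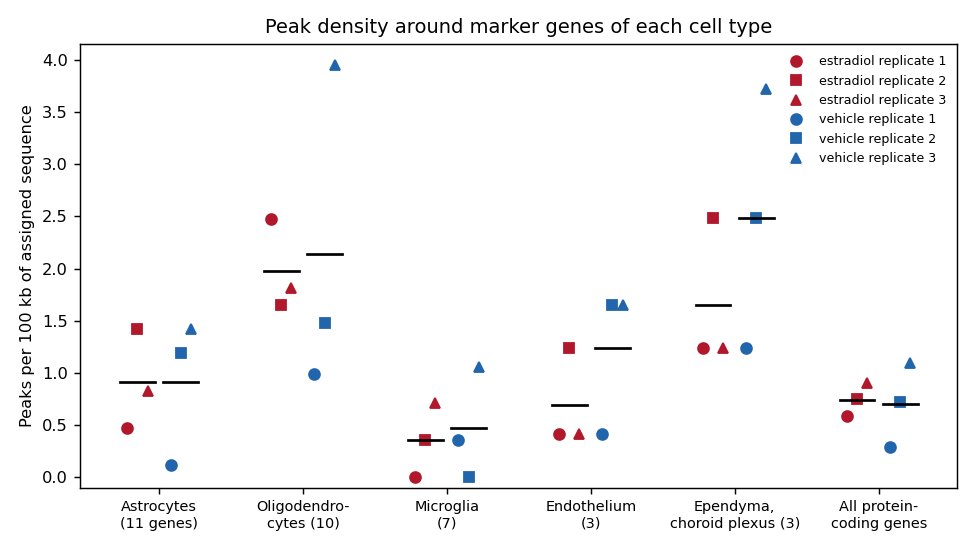
Peaks per 100 kb of assigned sequence (y axis) for the markers of each cell type and for all protein-coding genes, with each estradiol (red) and vehicle (blue) library as a point and the group mean (n = 3) as a black line. The oligodendrocyte points lie above those of all genes in each library (1.65 to 2.47 in estradiol, 0.989 to 3.96 in vehicle), and the estradiol points of each cell type overlap the vehicle points.

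Over all 34 markers the position of the regions differed from that of all regions mainly among those that recurred. Of the 57 regions held by 1 library, 26.3% lay within 1 kb of a gene end, against 16.3% of such regions of all genes. Of the 17 held by at least 3 libraries it was 23.5%, against 54.7%. Per library, 19.0%, 21.4% and 22.7% of marker peaks lay near a gene end in estradiol replicates 1, 2 and 3, where 48.2%, 47.3% and 38.3% of all assigned peaks did. In vehicle replicates 1, 2 and 3 it was 20.0%, 24.0% and 26.1%, against 55.8%, 45.6% and 39.1%. The marker share was below that of all peaks in each of the 6 libraries. It was not shared by all cell types. Of the regions of oligodendrocyte and endothelial markers, 13.2% and 0% lay near a gene end, against 29.3% of all assigned regions. For astrocyte, microglial and ependymal and choroid plexus markers it was 40%, 33.3% and 42.9%.

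**Figure D4:**
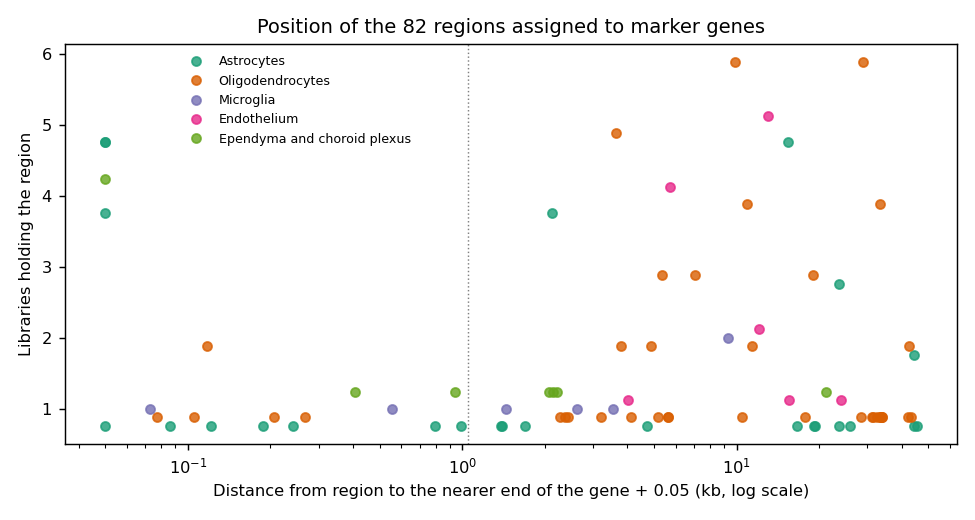
Distance from each of the 82 marker gene regions to the nearer end of its gene (x axis, kb, log scale, with 0.05 added) against the number of libraries that hold it (y axis, shifted slightly by cell type), with a dotted line at 1 kb. Oligodendrocyte regions held by at least 3 libraries lie to the right of the line, the regions at the starts of Glul and Aldh1l1 coincide at the far left, and no microglial region is held by more than 2 libraries.

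Other markers of the same cell types were counted too, none of them among the 34. Further oligodendrocyte lineage genes had a peak in at least 1 and in at least 3 libraries less often than the listed oligodendrocyte markers. Further microglial genes had one in at least 3 libraries more often than the listed microglial markers. In at least 1 library the 2 microglial lists were close (72.7% and 71.4%). Several shares of the further genes were near those of all genes. Of 11 further genes of the oligodendrocyte lineage, 7 (63.6%) had a peak in at least 1 library, near the 60.9% of all genes. In all 3 estradiol libraries 2 had one, Enpp6 and Cspg4 (18.2%, against 25.6%), and in all 3 vehicle libraries 0 (against 16.8%). No library held one at 4 (36.4%, against 39.1%), the myelin regulator Myrf among them. Whether the lists differ was not tested. Of 11 further microglial genes, 8 (72.7%, against 60.9% of all genes) had a peak in at least 1 library. In at least 3 libraries 5 had one (45.5%, near the 41.7% of all genes), where 0 of the 7 microglial markers above did. In all 3 estradiol libraries 2 had one (18.2%, against 25.6%). One of the further genes, C1qc, another chain of complement C1q, had 1 region with a peak in each estradiol library and in vehicle replicate 3. Of 11 further astrocyte genes all had a peak in some library (against 60.9%), and 1 in all 3 estradiol libraries (9.09%, against 25.6%). Of 11 endothelial and mural genes 10 had one in some library (90.9%, against 60.9%) and 0 in all 3 estradiol libraries (against 25.6%). Of 10 further ependymal and choroid plexus genes 6 had one in some library (60%, near the 60.9% of all genes). Of these, Rsph1 had one in all 6 libraries (10%, against 14.3%).

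Neuronal markers were counted beside these, since neurons are the other main cells of the tissue. All 11 had a peak in at least 3 libraries, where 41.7% of all genes did. In all 3 estradiol libraries 7 had one (63.6%, against 25.6%), and in all 3 vehicle libraries 2 (18.2%, near the 16.8% of all genes). These genes include some of the longest in the set, such as Syt1, whose assigned sequence spans 605 kb, and the number of peaks at a gene was not corrected for its length in these counts. The part of length, and of the number of nuclei of each type, in any of these counts was not tested.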

How the data were processed

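The deposited files were 6 peak lists on mm10, 1 per library. Per the submitters' processing notes, MACS2, Bowtie2, cutadapt, deepTools, SAMtools and Picard were used, with no version or role stated. Control libraries and pooling are not given in the sources used here. Per the deposited lists, each peak has a score (10 times the −log10 q-value, rounded down), a fold enrichment ratio at the summit, a −log10 p-value and a −log10 q-value. These are the authors' values and were used only within a list. The peak names carry a q-value of 0.01.

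Summit fragments were estimated from fold and p-value, assuming a pseudocount of 1 and a Poisson tail. They matched the −log10 p within 0.0002 for 99.99% to 100% of the peaks of a library. Genes and promoter windows came from RefSeq tables of GRCm38.p6. All 99 names, 34 members and 65 further markers, matched. Peaks and genes were handled with Python 3.11.15, pandas 2.3.3 and SciPy 1.17.1, and adjustment used statsmodels 0.14.6. The assignment was tested on simulated data against bedtools.

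Peak counts per gene were compared between groups with an exact permutation test (two-sided). The members and lists were chosen with earlier results of these data known. By rule, genes were named with values when they had a region in all 6 libraries, a region in at least 2 libraries of a group and none of the other, peak numbers that did not overlap between groups, one of the 5 largest numbers of regions, or no peak. Other genes given with values, mainly those with a region in at least 3 libraries, were chosen after their values were seen. Alternatives were the distance, the threshold, list length, merging and left-out libraries.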

Additional observations from a re-analysis of the deposited data

How the results depend on the processing

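The main counts were 9 markers with a peak in all 3 estradiol libraries, 7 in all 3 vehicle libraries, 5 in all 6 and 7 in none. They were 1, 1, 0 and 18 with peaks inside the gene only, 3, 1, 1 and 18 for −log10 q values from 5 upward, and 3, 2, 1 and 19 with lists of equal length. Within 10 kb, the counts for all estradiol libraries and all libraries were 5 and 2. A minimum −log10 q of 3 gave, for all vehicle libraries and all libraries, 4 and 3. The 2 markers with at least 2 estradiol and no vehicle libraries numbered 0, and the Cldn11 region was lost (0 regions), inside the gene only, for a minimum −log10 q of 5 and with lists of equal length. The 1 marker with the reverse pattern became 2 within 10 kb and 0 for a minimum −log10 q of 3 or 5, with lists of equal length and in replicates 1 and 2 alone. Regions with at least 2 estradiol and no vehicle libraries numbered 3 within 100 kb and 2 in replicates 1 and 2. Those with the reverse pattern numbered 1 for a minimum −log10 q of 3 and 4 with 50% cover. Markers whose peak numbers did not overlap between groups numbered 1 inside the gene and 3 in replicates 1 and 2. Regions in all libraries numbered 0 inside the gene and with 50% cover, and 1 within 10 kb, for a minimum −log10 q of 5 and with lists of equal length. In replicate 3 alone, 18 markers had a peak in the estradiol library, 22 in the vehicle library and 15 in both, with 2 microglial markers in the estradiol library, a difference of -4 and 13 shared regions. The mean share of marker peaks near gene ends in estradiol libraries, 21.1% within 1 kb, was 18.4% within 500 bp and 25.4% within 2 kb. With any 1 library left out there were 9 to 14 markers with a peak in all estradiol libraries, 7 to 15 in all vehicle libraries (15 without vehicle replicate 1), 5 to 8 in all libraries and 7 to 9 in none, with 0 to 1 for microglia in all estradiol libraries. The same gave 0 to 6 markers with at least 2 estradiol and no vehicle libraries, 0 to 3 with the reverse, 0 to 3 regions of each kind, 0 to 3 markers without overlap, 2 to 6 regions in all libraries and a difference of -2 to 5. Merging peaks within 500 bp was run for the 3 region counts alone and left them at 1, 0 and 2. The cause was not tested, beyond fewer peaks or libraries being counted in several settings.

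The replicate numbers were not taken to pair the samples, since the labels do not say whether they do. An estradiol and a vehicle library of the same number correlated at 0.130, 0.0360 and 0.145 over 13333 genes. Libraries of different numbers correlated at -0.127 to 0.0358. These values serve only to compare the pairs with each other. They do not measure how far 2 lists share peaks, since 3126 of these genes had a peak in all 6 libraries. Each correlated best with its own number, but vehicle replicate 2 was nearly tied, with 0.0358 for estradiol replicate 3. This is a hint from the data and not the design. Counted with the replicate block, 3 markers had a peak in the estradiol library alone in at least 2 pairs with no pair the other way, where 3.61% of all genes did, and 1 in the vehicle library alone, where 2.35% did. Depth limits all counts, since summits of 4 to 6 fragments are near the smallest that could be called.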
